A study of Homo sapiens with 24 samples.

Results

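The genes described here are the long non-coding small nucleolar RNA (snoRNA) host genes. They were chosen by name: every row of the count table that maps to a lncRNA gene called SNHG with a number, plus GAS5, ZFAS1, EPB41L4A-AS1 and DANCR. This gave 32 genes of the 60675 rows of the table. Total RNA of MIA PaCa-2 cells, an established human pancreatic ductal adenocarcinoma line, had been freed of ribosomal RNA and sequenced in 8 groups of 3 libraries, 24 libraries in all. C/EBPδ-inducible cells carried a vector with a doxycycline-responsive promoter in front of the CEBPD cDNA and the mVenus fluorophore, and were a pool of 3 clones. CTRL cells carried the same vector without the cDNA and the mCherry fluorophore. Both lines were sampled after 0, 8, 24 and 48 h of doxycycline. The labels give 2 µg/mL doxycycline for all groups including 0 h, whereas the methods of the study describe cells without doxycycline, and the 0 h groups are taken here as untreated. The lines differ in the cDNA, the fluorophore and the cloning step, and these cannot be told apart. For RNA, the methods of the study describe wells seeded in triplicate, with or without doxycycline for 24 h. The study calls the replicates of an expression plot of these cells at 0 and 24 h biological, without saying whether the cultures were grown apart. The labels give only a number, so the p-values measure the spread between these libraries, which may be technical.

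snoRNAs guide the chemical modification of ribosomal and spliceosomal RNA: box C/D snoRNAs direct ribose methylation and box H/ACA snoRNAs direct the formation of pseudouridine. In human cells most of them are cut out of introns, and the host gene is the transcript that carries those introns. The spliced exons of many non-coding hosts enter ribosomes, meet an early stop codon upstream of an exon junction and are removed by nonsense-mediated decay (NMD), so that their steady-state level depends on synthesis and on decay. Several hosts also start like ribosomal protein mRNAs, with a C followed by a run of C and T at the first transcribed base (a 5′ terminal oligopyrimidine, or TOP, start), which ties their translation to growth signalling. The libraries measured steady-state RNA, and decay itself was not measured.

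The first transcribed bases are shown for 12 of the hosts, because the TOP start is a sequence feature these genes are known for. The 12 are not a representative choice. SNHG32 is shown though it was called in no comparison below. SNHG1, SNHG16, DANCR and SNHG3 were called in some and are not shown, with runs of 3, 0, 0 and 0 bases. The share over all hosts with an entry follows the sequences. Each line gives 20 bases before and 30 bases from the RefSeq start (build GRCh38.p14), read 5′ to 3′ on the strand of the gene, and capitals mark the uninterrupted run of C and T that begins at the first transcribed base.
SNHG12 (chr1:28581844-28581893, minus strand): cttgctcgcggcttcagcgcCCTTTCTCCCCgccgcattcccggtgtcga
SNHG4 (chr5:139274081-139274130, plus strand): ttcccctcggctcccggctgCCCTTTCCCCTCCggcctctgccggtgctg
ZFAS1 (chr20:49278622-49278671, plus strand): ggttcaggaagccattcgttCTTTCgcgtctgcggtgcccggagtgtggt
SNHG5 (chr6:85678704-85678753, minus strand): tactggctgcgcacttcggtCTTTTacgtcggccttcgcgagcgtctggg
SNHG32 (chr6:31834896-31834945, plus strand): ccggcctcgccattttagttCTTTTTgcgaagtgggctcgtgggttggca
SNHG19 (chr16:2155329-2155378, minus strand): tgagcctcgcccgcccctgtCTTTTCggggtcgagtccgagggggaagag
SNHG7 (chr9:136728155-136728204, minus strand): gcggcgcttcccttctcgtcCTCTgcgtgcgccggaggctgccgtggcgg
SNHG17 (chr20:38435299-38435348, minus strand): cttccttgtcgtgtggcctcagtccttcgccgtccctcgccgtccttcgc
SNHG10 (chr14:95534843-95534892, minus strand): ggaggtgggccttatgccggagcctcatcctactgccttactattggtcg
SNHG14 (chr15:24823588-24823637, plus strand): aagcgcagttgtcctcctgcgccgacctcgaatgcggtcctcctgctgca
SNHG29 (chr17:16438967-16439016, plus strand): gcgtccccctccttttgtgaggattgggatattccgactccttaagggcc
GAS5 (chr1:173869016-173869065, minus strand): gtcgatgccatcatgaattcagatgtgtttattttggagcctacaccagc

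A run of at least 5 C or T from a first base C was present in 7 of the 28 hosts with an entry in the RefSeq promoter table (25%: SNHG12, SNHG18, SNHG19, SNHG32, SNHG4, SNHG5 and ZFAS1), against 4.07% of all 35116 promoters of that table. Among the hosts that could be tested, SNHG4 had the longest run, at 13 bases, followed by SNHG12 at 11. SNHG7 held 4 such bases and SNHG17, SNHG10, SNHG14, SNHG29 and GAS5 none, at the start that RefSeq gives. That start lies upstream of the gene start in GENCODE for SNHG14 and GAS5 and downstream of it for SNHG17, SNHG10 and SNHG29. Among the hosts with a run of at least 5, it lies downstream as well for SNHG12, SNHG18, SNHG19, SNHG32, SNHG5 and ZFAS1. For SNHG4 the starts nearly coincide. Many genes start at several neighbouring bases, so a run, or its absence, describes only the letters at this base. In the 300 bases around the start, the E-box CACGTG was found in SNHG30 and SNHG7 (7.14% of the hosts against 7.26% of all promoters). The C/EBP motif TTGCNNAA was in none of the 28 (10.5% of all promoters) and the C/EBP-ATF motif TGATGNAAT in none (0.991%), both searched on both strands. These letters describe the windows and not binding.

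Levels of the hosts were compared per kilobase of exon, since a long transcript collects more counts. The length takes all exons annotated for a gene in GENCODE 44 together, which can exceed the length of the transcripts present. The study names a different annotation release for its reference, so these lengths may not be those used in counting. The values per kilobase therefore depend on the annotation. SNHG29, also known as LRRC75A-AS1 and host of SNORD49A and SNORD49B, had the highest mean, at 50.9 CPM (the usual depth-normalized read count) per kilobase over the 24 libraries (44.2 to 57.3). SNHG32 (41.6), GAS5 (41.4), SNHG16 (40.5) and SNHG3 (40.4) followed, and the ranges of these 5 hosts over the libraries overlapped, so that no order is given among them. SNHG1 was at 29.6 (19.6 to 36.0), and the next host, SNHG12, stood at 15.1. SNHG14 reached 0.342 CPM per kilobase, with annotated exons that add up to 122609 bases. SNHG27 had no count in any library, which allows up to 0.130 to 0.236 CPM (3 counts), depending on the depth of the library. In counts without regard to length, SNHG29, SNHG16, GAS5, SNHG5 and SNHG3 were the 5 largest, with 208328, 107199, 93137, 75842 and 75557 counts over the 24 libraries.

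All 32 hosts together held between 0.182% ± 0.0024 (SD, n = 3) of the counts of a library, in CTRL cells at 48 h, and 0.208% ± 0.0034, in C/EBPδ-inducible cells at 24 h. Without SNHG29, SNHG16 and GAS5 the group means ranged from 0.0925% to 0.117%, and the same groups were lowest and highest. A filter on low counts was passed by 27 hosts in all 13 comparisons. SNHG31 passed in 12 of them and SNHG21, at 2 to 17 counts in a library, in 2. SNHG18 (9 counts in all), SNHG27 and SNHG28 (64 counts) were never tested, and counts of hosts below are of those tested in that comparison.

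**Figure D1:**
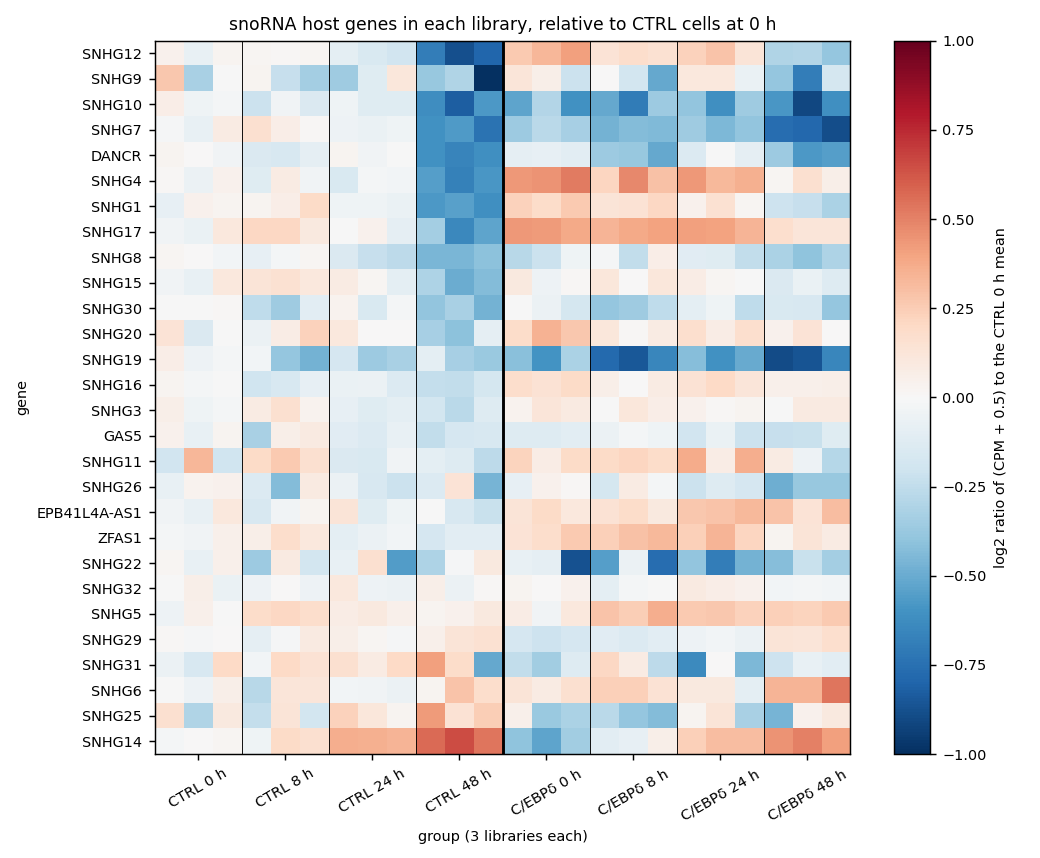
Level of 28 snoRNA host genes (rows, ordered by their change from 0 to 48 h in CTRL cells) in each of the 24 libraries (columns, grouped by line and time), as the log2 ratio of CPM + 0.5 to the mean of CTRL cells at 0 h, with red higher and blue lower on a colour scale from -1 to 1. Many rows are blue in the 3 CTRL libraries at 48 h, SNHG4, SNHG17 and SNHG12 are red in C/EBPδ-inducible cells up to 24 h, and SNHG14 turns red with time in both lines.

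Libraries held between 12731237 and 22598595 counts. CEBPD was at 1.90 to 4.02 CPM in the CTRL groups, at 21.5 ± 2.4 in untreated C/EBPδ-inducible cells, and at 249 ± 15, 307 ± 13 and 204 ± 7.1 there after 8, 24 and 48 h (SD, n = 3). The carcinoma label was checked with epithelial markers: the keratin KRT8 was at 1559.6 CPM in CTRL and 74.3 in C/EBPδ-inducible cells at 0 h, while EPCAM and CDH1 were absent in some libraries and at most at 2.29 and 6.20 CPM. The mesenchymal marker VIM was at 5349 to 7000.2 CPM, and the leukocyte marker PTPRC and the fibroblast marker DCN had at most 1 count in a library. The other leukocyte markers, CD68 and CD14, reached 38 and 27 counts in a library, at most 2.02 and 1.35 CPM. COL1A2, a collagen of fibroblasts, was at 135 to 688 CPM. The other fibroblast markers COL1A1, COL3A1 and LUM were at most at 1.86, 2.21 and 0.478 CPM. The part of COL1A2 in the results was not tested. The 8 h libraries varied most: the chi-square per gene between libraries of a group reached 16.7 between CTRL replicates 1 and 3, and 12.3 and 12.5 between C/EBPδ-inducible replicate 3 (the shallowest) and the other two, against 1.66 to 8.36 at the other times. In bulk RNA, fewer cells of a type and less RNA per cell cannot be told apart. The strand setting of the counting is not given in the sources used here, and 18 of the 32 hosts overlap exons of a gene on the other strand, so reads of the partners named below cannot be told apart from those of the host.

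The first question was whether the lines differed in their snoRNA hosts before and after induction. Differences were tested with edgeR's quasi-likelihood test and Benjamini-Hochberg adjustment over all genes, and a gene is called at a false discovery rate (FDR) of 0.01. All adjusted p-values below come from that test, and errors of log2 differences are standard errors. Before doxycycline, C/EBPδ-inducible cells had more RNA than CTRL cells for 6 of 28 hosts and less for 6, where 20% of all genes were higher, 23.9% lower and 43.9% called in either direction. The median log2 difference over the hosts was -0.0038, and over all genes 0.0098. After 24 h, 9 hosts were higher and 2 lower, against 21.5% and 25.3% of all genes (46.9% in either direction). The median over the hosts was then 0.06 and over all genes 0.008. The higher hosts at 24 h were SNHG4, SNHG11, SNHG17, SNHG12, ZFAS1, EPB41L4A-AS1, SNHG16, SNHG5 and SNHG3, and the lower ones SNHG10 and SNHG7.

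SNHG4 hosts the box H/ACA snoRNA SNORA74A. Its level at 0 h was 22.1, 21.1 and 22.7 CPM in CTRL and 29.8, 30.1 and 31.7 CPM in C/EBPδ-inducible cells. At 24 h it was 19.7, 21.6 and 21.6 CPM in CTRL and 29.8, 27.6 and 28.3 CPM in C/EBPδ-inducible cells. All C/EBPδ-inducible libraries lay above all CTRL libraries at both times. The log2 difference was 0.46 ± 0.059 at 0 h and 0.44 ± 0.063 at 24 h (adjusted p = 1.65e-06 and 1.59e-06). SIL1, which overlaps SNHG4 on the other strand, was lower in C/EBPδ-inducible cells (log2 -0.32 and -0.28), opposite to SNHG4. SNHG4 also overlaps exons of MATR3 on the same strand, so its counts depend on how shared reads were assigned.

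SNHG17 hosts the SNORA71 family of box H/ACA snoRNAs. At 24 h its level was 59.3, 61.2 and 55.8 CPM in CTRL cells and 79.2, 78.7 and 75.2 CPM in C/EBPδ-inducible cells, a log2 difference of 0.40 ± 0.042 (adjusted p = 1.04e-08). At 0 h the difference was 0.40 ± 0.046 (adjusted p = 4.23e-07). The lines were thus apart before doxycycline, and SNHG17 has no annotated exon overlap on the other strand.

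SNHG12 hosts SNORD99 and the box H/ACA snoRNAs SNORA16A, SNORA44 and SNORA61, and has the 11-base run of C and T at the RefSeq start shown above. Its CTRL libraries stood at 61.6, 59.4 and 57.6 CPM at 24 h and its C/EBPδ-inducible libraries at 77.6, 80.4 and 72.0 CPM. The groups did not overlap, and the log2 difference was 0.36 ± 0.044 (adjusted p = 1.30e-07), next to 0.33 ± 0.046 at 0 h. Its partner on the other strand, TRNAU1AP, was called at neither time. TRNAU1AP differed by log2 0.24 at 0 h (adjusted p = 0.0182), with the sign of SNHG12, and by 0.01 at 24 h (adjusted p = 0.905). The part of TRNAU1AP in the result was not tested.

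ZFAS1 lies beside ZNFX1 and hosts SNORD12, SNORD12B and SNORD12C. It was at 50.5, 51.8 and 52.9 CPM in CTRL cells and at 63.7, 68.4 and 62.5 CPM in C/EBPδ-inducible cells at 24 h. All C/EBPδ-inducible libraries were above the CTRL libraries, with a log2 difference of 0.32 ± 0.045 (adjusted p = 9.54e-07). At 0 h the difference was 0.18 ± 0.046 (adjusted p = 0.00264), and that call was lost without CTRL replicate 2 or C/EBPδ-inducible replicate 3 (adjusted p of 0.0153 to 0.0327). The overlapping ZNFX1 was not called between the lines at 0 or 24 h (log2 -0.01 and -0.06).

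SNHG11, host of SNORA60, was at 6.44 ± 0.31 CPM in CTRL and 8.58 ± 1.0 in C/EBPδ-inducible cells at 24 h (SD, n = 3). The C/EBPδ-inducible libraries read 9.20, 7.39 and 9.16 CPM, so that replicate 2 lay nearest to the CTRL libraries. Its log2 difference of 0.41 ± 0.11 (adjusted p = 0.00240) was no longer called without CTRL replicate 2, C/EBPδ-inducible replicate 1 or C/EBPδ-inducible replicate 3 (adjusted p of 0.0128 to 0.0189). EPB41L4A-AS1, host of SNORA13, had 21.2, 17.7 and 18.7 CPM in CTRL and 23.4, 23.6 and 24.3 CPM in C/EBPδ-inducible cells at 24 h. The groups were apart, by a log2 difference of 0.31 ± 0.069 (adjusted p = 0.000452), and at 0 h the difference of 0.13 was not called (adjusted p = 0.105). SNHG16, host of the SNORD1 genes, differed by 0.24 ± 0.033 and SNHG5, host of SNORD50B, by 0.18 ± 0.034. The difference of SNHG3 was 0.12 ± 0.034 (adjusted p = 0.00391), and its call was lost without any 1 of the 3 CTRL libraries or C/EBPδ-inducible replicate 3 (adjusted p of 0.0116 to 0.0320). SNHG3 overlaps exons of RCC1 on the same strand, so its counts depend on how shared reads were assigned.

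Of the lower hosts, SNHG7 carries the SNORA17 snoRNAs. At 24 h it was at 59.6, 59.1 and 59.9 CPM in CTRL and at 48.1, 45.0 and 46.9 CPM in C/EBPδ-inducible cells, a log2 difference of -0.36 ± 0.043 (adjusted p = 9.11e-08). All C/EBPδ-inducible libraries were below the CTRL libraries. The same difference was -0.33 ± 0.049 at 0 h. DIPK1B, on the other strand of SNHG7 and at 117 counts per library on average against 959 for SNHG7, differed in the same direction (log2 -1.30 at 0 h and -1.17 at 24 h), and its part in the result was not tested.

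SNHG10 is the host of SCARNA13, a guide RNA of the Cajal body. It was at 13.4, 12.6 and 12.68 CPM in CTRL and 10.4, 8.86 and 10.7 CPM in C/EBPδ-inducible cells at 24 h, with no overlap. The log2 difference was -0.37 ± 0.088 (adjusted p = 0.000733), next to -0.49 ± 0.092 at 0 h. GLRX5, which overlaps SNHG10 on the other strand and is the more abundant of the pair (1079 against 203 counts per library on average), differed in the same direction (log2 -0.40 at 0 h and -0.34 at 24 h), and its part in the result was not tested.

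Hosts called before induction and not at 24 h were GAS5, SNHG1, SNHG14, SNHG19 and SNHG29. GAS5, a transcript known to accumulate in growth-arrested cells, was at 227, 208 and 224 CPM in CTRL and 201, 201 and 204 CPM in C/EBPδ-inducible cells at 0 h. The C/EBPδ-inducible libraries were the lower ones by a small margin. Its log2 difference of -0.13 ± 0.034 (adjusted p = 0.00309) was lost without CTRL replicate 3 or C/EBPδ-inducible replicate 1 or 2 (adjusted p of 0.0113 to 0.0150) and in the model of all 24 libraries (adjusted p = 0.147). At 24 h GAS5 differed by -0.05 (adjusted p = 0.256). SNHG1, the host of SNORD22 and of SNORD25 to SNORD28, was higher at 0 h by 0.22 ± 0.039 and at 24 h differed by 0.12 (adjusted p = 0.0116). SNHG19, host of SNORD60, was lower at 0 h by a log2 difference of -0.48 ± 0.095.

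**Figure D2:**
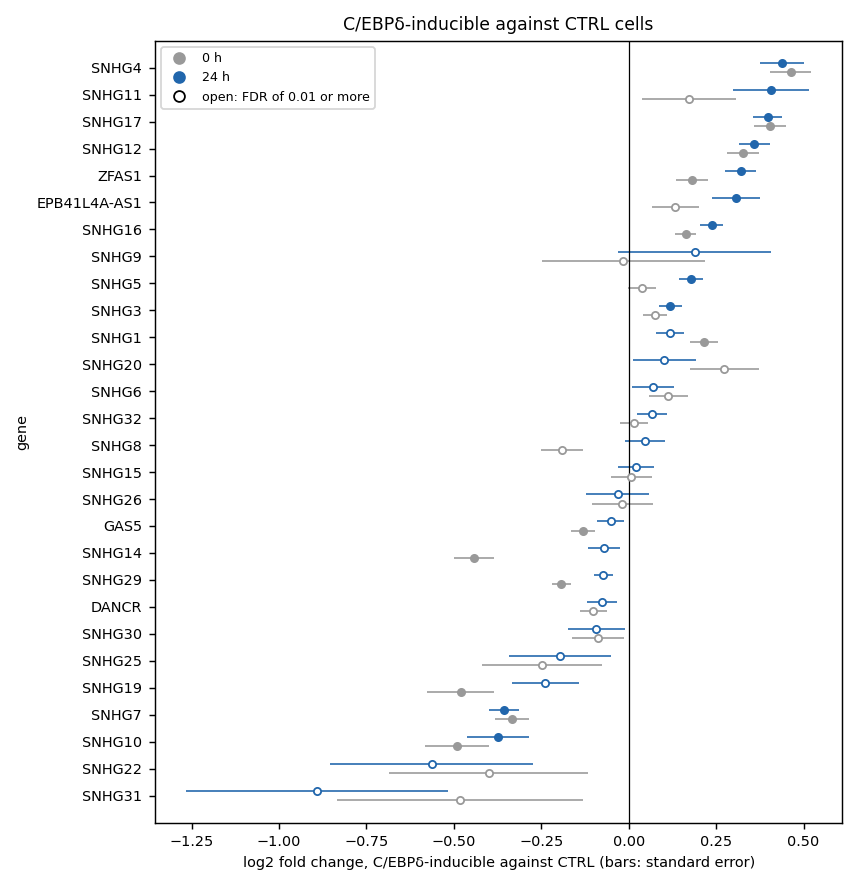
Log2 fold change of 28 snoRNA host genes between C/EBPδ-inducible and CTRL cells at 0 h (grey) and 24 h (blue) of doxycycline, with standard errors as bars and open symbols where the FDR was 0.01 or more. SNHG4, SNHG17, SNHG12, ZFAS1 and SNHG16 lie above 0 and SNHG10 and SNHG7 below 0 at both times, while SNHG14 lies at -0.44 at 0 h and -0.07 at 24 h.

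At 8 h, 1 of 28 hosts was higher (SNHG4) and 4 lower (DANCR, SNHG10, SNHG19 and SNHG7) in C/EBPδ-inducible cells, against 14.3% and 17.4% of all genes (31.8% in either direction). SNHG7 stood at 68.9, 64.6 and 62.2 CPM in CTRL and 44.5, 45.7 and 45.4 CPM in C/EBPδ-inducible cells, a log2 difference of -0.53 ± 0.062 (adjusted p = 3.39e-05). Of the 5 calls it was the only one that held without each of the 6 libraries. Without CTRL replicate 1, 8 hosts were called, without CTRL replicate 2 or C/EBPδ-inducible replicate 1 or 2 only 1, and without C/EBPδ-inducible replicate 3 there were 2. The shares of all genes called without these libraries are not given here. DANCR, a transcript named for antagonizing differentiation and host of SNORA26, was at 67.8, 66.8 and 70.3 CPM in CTRL and 58.0, 57.6 and 52.5 CPM in C/EBPδ-inducible cells at 8 h. The groups did not overlap, but the adjusted p of 0.00271 became 0.0105 to 0.0195 without CTRL replicate 2 or any 1 C/EBPδ-inducible library.

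After 48 h, 10 hosts were higher and 1 (SNHG19, log2 -0.58 ± 0.12) lower in C/EBPδ-inducible cells, against 17.6% and 20.7% of all genes (38.3% in either direction). The median difference over the 28 hosts was 0.15 and over all genes 0.0096. SNHG4 was at 14.9, 13.6 and 14.5 CPM in CTRL and 22.2, 24.5 and 22.8 CPM in C/EBPδ-inducible cells, a log2 difference of 0.69 ± 0.080 (adjusted p = 7.31e-06). SNHG17 was at 46.8, 37.9 and 41.0 against 66.9, 64.5 and 64.5 CPM, a log2 difference of 0.63 ± 0.073 (adjusted p = 7.52e-06). In both genes every C/EBPδ-inducible library exceeded every CTRL library. SNHG12, SNHG1 and SNHG16 followed with 0.46 ± 0.066, 0.33 ± 0.053 and 0.27 ± 0.042. EPB41L4A-AS1, SNHG15, SNHG3, SNHG5 and ZFAS1 were also called higher (log2 0.18 to 0.37), and each of these calls was lost without at least 1 library. That of ZFAS1 was lost without any of the 6, that of EPB41L4A-AS1 without CTRL replicate 3 or C/EBPδ-inducible replicate 1 or 3, and that of SNHG3 without C/EBPδ-inducible replicate 2. The call of SNHG15 was lost without replicate 2 or 3 of either line, and that of SNHG5 without CTRL replicate 3 or any C/EBPδ-inducible library (adjusted p over these genes of 0.0102 to 0.0578). Without CTRL replicate 3, C/EBPδ-inducible replicate 2 or C/EBPδ-inducible replicate 3 the number called was 7 instead of 11. The shares of all genes called in those refits are not given here.

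Over the 4 times, SNHG4 was called higher in C/EBPδ-inducible cells each time. SNHG12, SNHG16, SNHG17 and ZFAS1 were called higher at 0, 24 and 48 h. Of these 5, SNHG4, SNHG12 and ZFAS1 have a run of at least 5 C or T at the RefSeq start shown above. So does SNHG5, which was called higher at 24 and 48 h. SNHG19 and SNHG32 have such a run too: SNHG19 was lower at 0, 8 and 48 h and SNHG32 was called at no time. In all, 10 hosts could be tested and were called at no time between the lines: SNHG20, SNHG22, SNHG25, SNHG26, SNHG30, SNHG31, SNHG32, SNHG6, SNHG8 and SNHG9. Of all genes, 20%, 14.3%, 21.5% and 17.6% were called higher at 0, 8, 24 and 48 h, each time taken singly. In either direction 43.9%, 31.8%, 46.9% and 38.3% were called. The shares of all genes called at several times, or at none, are not given here, so these counts are not read as a trait of the hosts.

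A further question was how the hosts changed with doxycycline and culture time within a line. In CTRL cells, 0 of 28 hosts were called at 8 h by edgeR or by DESeq2, with 6 at an unadjusted p under 0.05, where 0.905% of all genes were called higher and 0.793% lower (1.7% in either direction). At 24 h only SNHG14 was called (higher), against 2.81% of all genes higher, 3.25% lower and 6.06% in either direction. SNHG14 is a transcript of the imprinted Prader-Willi and Angelman region that hosts the SNORD115 and SNORD116 clusters and runs antisense into UBE3A. It went from 36.1, 36.7 and 37.0 CPM at 0 h to 47.1, 46.9 and 46.4 CPM at 24 h, a rise of 0.36 ± 0.046 on the log2 scale (adjusted p = 2.25e-05). For these groups the replicate numbers were taken to pair the libraries, by a rule on correlations given below, although the labels state no pairing. With the replicate number as a block SNHG8 was called as well (log2 -0.21 ± 0.050, adjusted p = 0.00963), which gave 2 calls, 1 higher and 1 lower.

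After 48 h in CTRL cells, 13 of 28 hosts fell and 1 rose, where 14.7% of all genes were lower, 15.2% higher and 30% called in either direction. The hosts that fell were SNHG12, SNHG10, SNHG7, DANCR, SNHG4, SNHG1, SNHG17, SNHG8, SNHG15, SNHG30, SNHG16, SNHG3 and GAS5, and SNHG14 rose. The median log2 change over the hosts was -0.21 and over all genes 0.0088. Doxycycline and time in culture cannot be told apart, since all groups after 0 h received it.

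SNHG12 fell from 67.8, 62.6 and 67.4 CPM at 0 h to 40.6, 35.6 and 37.8 CPM at 48 h in CTRL cells, a log2 change of -0.80 ± 0.067 (adjusted p = 2.32e-06). In C/EBPδ-inducible cells it went from 78.9, 83.2 and 87.9 CPM to 53.5, 53.8 and 50.3 CPM, a change of -0.67 ± 0.046 (adjusted p = 3.87e-12). In either line all 48 h libraries lay below all 0 h libraries. TRNAU1AP on the other strand was not called in either line. Its log2 change was 0.14 in CTRL cells (adjusted p = 0.264). In C/EBPδ-inducible cells it was -0.22 (adjusted p = 0.0192), with the sign of SNHG12.

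SNHG7 fell from 61.2, 58.6 and 65.5 CPM to 40.3, 41.6 and 36.9 CPM in CTRL cells (log2 -0.65 ± 0.067, adjusted p = 1.13e-05). It also fell from 47.8, 51.2 and 49.0 CPM to 36.3, 35.6 and 33.2 CPM in C/EBPδ-inducible cells (log2 -0.50 ± 0.051, adjusted p = 6.83e-09). No 48 h library reached a 0 h library of its line. Its partner DIPK1B rose over the same time, by 0.67 and 0.66 on the log2 scale.

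SNHG10 stood at 14.4, 13.4 and 13.6 CPM in CTRL cells at 0 h and at 8.83, 7.57 and 9.11 CPM at 48 h, a log2 change of -0.70 ± 0.099 (adjusted p = 0.000127). In C/EBPδ-inducible cells, where it began lower, it was at 9.43, 11.2 and 8.89 CPM at 0 h and 9.06, 7.13 and 8.87 CPM at 48 h. These groups overlapped, and the change of -0.27 ± 0.11 was not called (adjusted p = 0.0461). The difference between the changes was 0.43 ± 0.15 and was not called either (adjusted p = 0.0919).

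DANCR went from 76.2, 75.3 and 73.1 CPM to 49.1, 47.3 and 48.8 CPM in CTRL cells (log2 -0.63 ± 0.054, adjusted p = 2.50e-06). In C/EBPδ-inducible cells it went from 70.4, 70.7 and 69.5 CPM to 58.1, 50.1 and 51.0 CPM (log2 -0.42 ± 0.049, adjusted p = 9.29e-08). Its 48 h libraries were the lower ones in both lines. GAS5 fell less, from 227, 208 and 224 CPM to 185, 196 and 196 CPM in CTRL cells (log2 -0.20 ± 0.047, adjusted p = 0.00485), and lost the call without CTRL 0 h replicate 1 or 3 or CTRL 48 h replicate 3 (adjusted p of 0.0151 to 0.0257). The change of GAS5 in C/EBPδ-inducible cells was -0.08 (adjusted p = 0.0424). SNHG3 lost its call in CTRL cells (log2 -0.20) without any 1 of the CTRL 0 h libraries or CTRL 48 h replicate 2 or 3 (adjusted p of 0.0117 to 0.0266), and SNHG30 (log2 -0.42) without CTRL 48 h replicate 3 (0.0109).

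C/EBPδ-inducible cells showed 5 calls among 28 hosts at 8 h, with 2 higher and 3 lower, against 14.6% and 15.8% of all genes (30.5% in either direction). SNHG14 and SNHG5 rose, by 0.38 ± 0.061 and 0.24 ± 0.039 on the log2 scale. DANCR, SNHG12 and SNHG16 fell, with log2 changes of -0.33 ± 0.040, -0.19 ± 0.038 and -0.13 ± 0.032. The fall of DANCR was from 70.4, 70.7 and 69.5 CPM at 0 h to 58.0, 57.6 and 52.5 CPM at 8 h (adjusted p = 8.97e-07), and at 24 h DANCR stood at 67.9, 74.7 and 70.4 CPM. SNHG16 lost its call without C/EBPδ-inducible 0 h replicate 1 or 3 or 8 h replicate 2 (adjusted p of 0.0101 to 0.0175).

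At 24 h in these cells, 3 of 27 hosts rose (SNHG14, SNHG5 and SNHG29) and 1 fell (SNHG1), against 7.33% and 8.14% of all genes (15.5% in either direction). SNHG5 went from 157, 146 and 161 CPM at 0 h to 179, 181 and 176 CPM, with no overlap and a log2 change of 0.21 ± 0.038 (adjusted p = 0.000154). The change of SNHG1 by -0.15 ± 0.039 (adjusted p = 0.00690) was not called without C/EBPδ-inducible 0 h replicate 1 or 3 or 24 h replicate 1 or 3, with adjusted p of 0.0179 to 0.0603.

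At 48 h in C/EBPδ-inducible cells, 9 of 28 hosts fell and 4 rose, where 19.5% of all genes were lower, 19.1% higher and 38.7% called in either direction. The median log2 change of the hosts was -0.15 and of all genes 0.005. SNHG1 fell from 141, 136 and 143 CPM to 103, 102 and 96.0 CPM (log2 -0.49 ± 0.038, adjusted p = 5.53e-11), next to a change from 113, 123 and 122 to 80.1, 82.0 and 77.8 CPM in CTRL cells (log2 -0.58 ± 0.053). In both lines the 48 h libraries of SNHG1 were all below the 0 h libraries. SNHG4, SNHG17 and SNHG16 fell as well, with log2 changes of -0.40 ± 0.061, -0.29 ± 0.040 and -0.13 ± 0.029. SNHG26 changed by -0.44 ± 0.094, and SNHG19 by -0.39 ± 0.11, which was not called without any 1 of C/EBPδ-inducible 0 h replicates 1 and 3 and 48 h replicates 1 and 2 (adjusted p of 0.0198 to 0.0354).

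The hosts that rose were SNHG14, SNHG29, SNHG6 and SNHG5. SNHG6, host of SNORD87, went from 33.0, 32.0 and 33.7 CPM to 38.3, 38.3 and 43.9 CPM (log2 0.28 ± 0.057, adjusted p = 0.000242). SNHG29 rose from 406, 395 and 407 CPM to 499, 498 and 513 CPM (log2 0.31 ± 0.027, adjusted p = 5.35e-10). The groups were apart for both genes.

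Each line was compared with its own 0 h libraries, so the lists can be set side by side. DANCR, SNHG1, SNHG12, SNHG16, SNHG17, SNHG4 and SNHG7 fell in both at 48 h, 7 of the 13 in CTRL and 7 of the 9 in C/EBPδ-inducible cells, and SNHG14 rose in both. Called or not, 21 of the 28 hosts had a log2 change below 0 in both lines and 6 a change above 0 in both (SNHG14, SNHG25, SNHG29, SNHG31, SNHG5 and SNHG6). Of all genes, 14.7% were called lower in CTRL and 19.5% in C/EBPδ-inducible cells, each line taken singly. The shares of all genes that fell, or had the same sign, in both lines are not given here. These counts are therefore not read as a trait of the hosts.

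**Figure D3:**
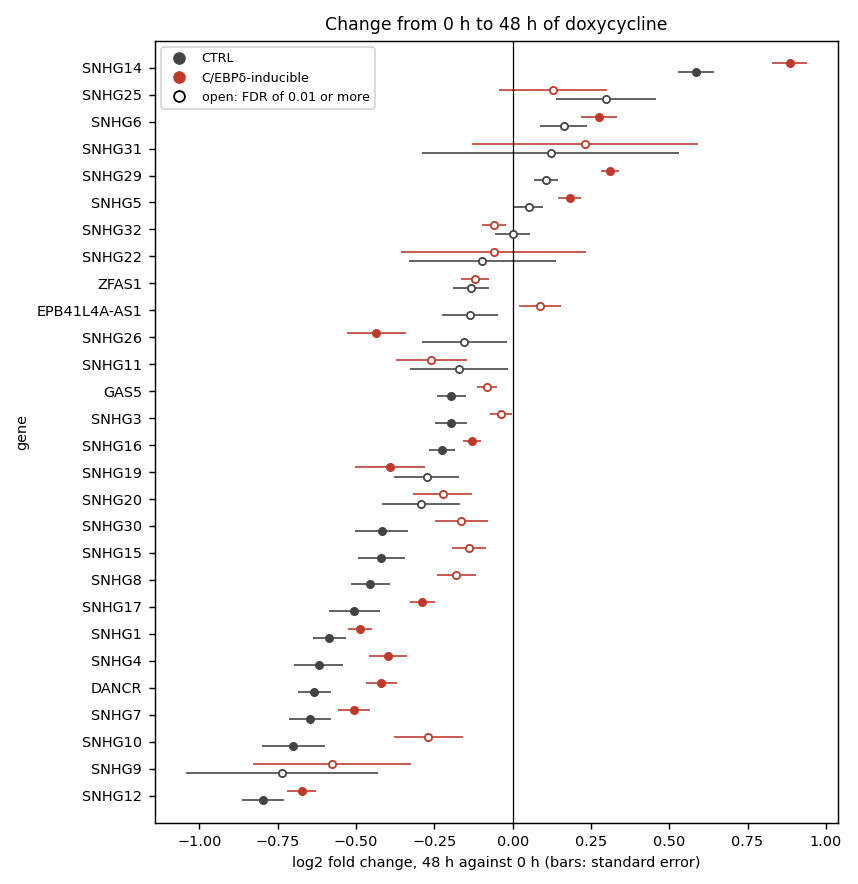
Log2 fold change of 28 snoRNA host genes from 0 to 48 h of doxycycline in CTRL cells and in C/EBPδ-inducible cells, with standard errors as bars, filled symbols where the gene was called at an FDR of 0.01 and open symbols otherwise. SNHG12 lies lowest in CTRL cells, at -0.80, SNHG14 highest in both lines, at 0.59 and 0.88, and most hosts lie below 0 in both.

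Whether a change with doxycycline differed between the lines was tested as the interaction of line and time. At 8 h, 0 of 29 hosts were called by edgeR or by DESeq2, with 6 at an unadjusted p under 0.05, where 0.887% of all genes were called higher and 0.77% lower (1.66% in either direction). At 24 h, 1 of 29 was called, higher, against 2.86% of all genes higher, 2.98% lower and 5.84% in either direction. This was SNHG14, which rose in both lines and by 0.37 ± 0.070 more on the log2 scale in C/EBPδ-inducible cells (adjusted p = 0.000588). Its libraries there were at 27.6, 25.3 and 28.7 CPM at 0 h and at 43.2, 45.5 and 45.4 CPM at 24 h, a log2 change of 0.72 ± 0.055, next to 0.36 in CTRL cells. Between the lines SNHG14 differed by -0.44 ± 0.058 at 0 h and by -0.07 (adjusted p = 0.190) at 24 h. At 48 h it reached 54.5, 57.8 and 53.1 CPM in CTRL and 50.03, 52.2 and 48.7 CPM in C/EBPδ-inducible cells, and the interaction was 0.29 (adjusted p = 0.0295). SNHG14 also overlaps exons of other genes on the same strand, among them SNRPN, PWAR1 and PWAR5, so its counts depend on how shared reads were assigned. UBE3A, whose exons SNHG14 overlaps on the other strand, was more abundant. In C/EBPδ-inducible cells its log2 change from 0 h was 0.13 at 8 h (adjusted p = 0.00161), where SNHG14 changed by 0.38, -0.05 at 24 h (adjusted p = 0.271) and -0.12 at 48 h (adjusted p = 0.00521). In CTRL cells it was 0.05 at 24 h (adjusted p = 0.428) and -0.15 at 48 h (adjusted p = 0.0897). UBE3A and SNHG14 thus had values of the same sign at 8 h and of opposite sign at 24 and 48 h in C/EBPδ-inducible cells, and the part of UBE3A in the result was not tested.

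At 48 h, 1 of 28 hosts was called in the interaction, higher, against 2.83% of all genes higher, 2.72% lower and 5.54% in either direction. SNHG29 went from 459.8, 453 and 459 CPM at 0 h to 473, 499 and 509 CPM at 48 h in CTRL cells, a change of 0.11 ± 0.038 that was not called (adjusted p = 0.0379). The rise in C/EBPδ-inducible cells was larger by 0.20 ± 0.046 (adjusted p = 0.00848), after a lower level at 0 h (log2 -0.19 ± 0.026 between the lines). The call of the interaction was lost without any 1 of the CTRL 0 h, the C/EBPδ-inducible 0 h or the C/EBPδ-inducible 48 h libraries (adjusted p of 0.0155 to 0.0319), and with the replicate number as a block (0.0117), although the numbers were not taken to pair these libraries. Without CTRL 48 h replicate 1 there were 2 calls, the other being SNHG17 at 0.30. The overlapping LRRC75A had 32.3 counts per library on average against 8680.3 for SNHG29.

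**Figure D4:**
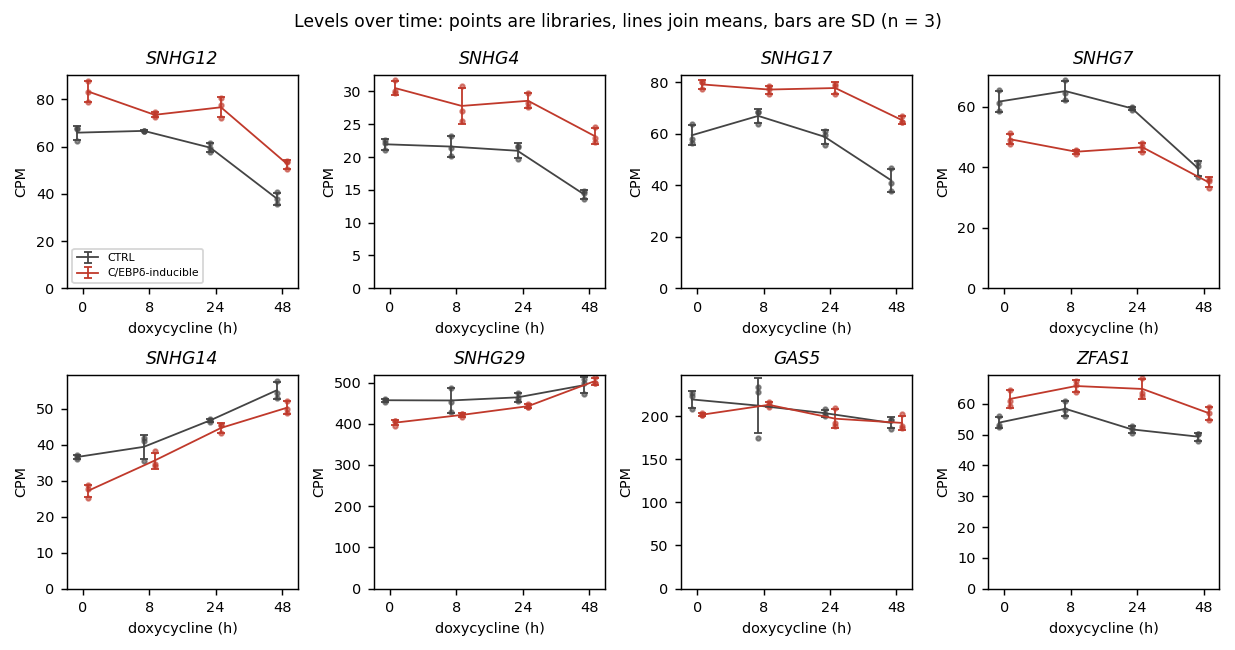
Levels of 8 snoRNA host genes in CPM at 0, 8, 24 and 48 h of doxycycline, drawn at even spacing, in CTRL and C/EBPδ-inducible cells. Points are libraries, lines join the means and bars are the SD (n = 3). The means of SNHG12, SNHG4, SNHG17 and SNHG7 drop between 24 and 48 h in both lines, SNHG14 is higher at 24 and 48 h than at 0 h, and the lines of SNHG29 meet at 48 h.

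The table also counts snoRNA genes that lie within a host on the same strand. There were 145 such rows in 31 hosts, 84 of them in SNHG14. No row was matched to GAS5 in the annotation used, which does not show that GAS5 carries no snoRNAs. Of the 145 rows, 86 had no count, 18 were tested at 24 h and 11 had at least 10 counts in every library. Whether these counts come from mature snoRNAs or from the host transcript was not tested, and a row inside an exon shares its place with the host.

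SCARNA13, annotated within an exon of SNHG10, was at 23.9 ± 2.3 CPM in CTRL and 18.3 ± 2.9 in C/EBPδ-inducible cells at 0 h (SD, n = 3). It was lower in C/EBPδ-inducible cells at 0 h (log2 -0.40 ± 0.092) and 24 h (-0.43 ± 0.078, adjusted p = 4.41e-05), as SNHG10 was. It fell at 48 h in CTRL cells (-0.59 ± 0.11) and in C/EBPδ-inducible cells (-0.38 ± 0.095, adjusted p = 0.00167), and SNHG10 was called in the former alone. SNORA26, within DANCR, was at 3.06 CPM in CTRL and 4.71 in C/EBPδ-inducible cells at 0 h. It was higher in C/EBPδ-inducible cells at 0 h (log2 0.60 ± 0.15) and 24 h (0.56 ± 0.17, adjusted p = 0.00626), where DANCR differed by -0.10 and -0.08 and was not called. It fell at 48 h as DANCR did, by 0.86 ± 0.19 and 0.86 ± 0.16 on the log2 scale in CTRL and C/EBPδ-inducible cells.

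SNORD12C, in an intron of ZFAS1, was at 2.84 CPM in CTRL cells at 0 h and 1.65 at 48 h. It fell over that time in CTRL cells (log2 -0.78 ± 0.19, adjusted p = 0.00572) and in C/EBPδ-inducible cells (-0.85 ± 0.17, adjusted p = 0.000165). ZFAS1 itself differed by -0.13 and -0.12 and was not called (adjusted p of 0.0743 and 0.0312), while ZNFX1, on the other strand, changed by -0.41 and -0.44. SNORA73B, in an intron of SNHG3 and with 21211 counts the largest of these rows, rose by 0.26 ± 0.075 at 48 h in C/EBPδ-inducible cells (adjusted p = 0.00580), where SNHG3 differed by -0.04. In CTRL cells SNORA73B differed by -0.25 (adjusted p = 0.0717). SNORA71A and SNORA71C, within exons of SNHG17, differed between the lines at 24 h by 0.21 and 0.50 (adjusted p of 0.117 and 0.0185).

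Genes of the decay pathway, and genes that share the layout of the hosts, were read from lists, by counts and medians only. Between the lines at 24 h, 7 of 12 NMD factors were more abundant in C/EBPδ-inducible cells and 3 less so (median log2 0.21), next to 21.5% and 25.3% of all genes. UPF3A, a paralogue of UPF3B, was higher by 0.63 ± 0.083, SMG9, a partner of the SMG1 kinase, by 0.49 ± 0.049, and the helicase DHX34 by 0.36 ± 0.041. NBAS, UPF3B and SMG6, the NMD endonuclease, were lower (log2 -0.28, -0.24 and -0.19), and UPF1, the central helicase, was not called (log2 -0.03, adjusted p = 0.450). The same list had 6 higher and 2 lower at 0 h (20% and 23.9% of all genes). At 48 h 7 of the 12 fell and 1 rose in CTRL cells, and 8 fell and 1 rose in C/EBPδ-inducible cells. Of all genes, 14.7% fell and 15.2% rose in the former, and 19.5% fell and 19.1% rose in the latter. SMG9 and DHX34 fell by 0.71 and 0.58 in CTRL and fell by 0.51 and 0.46 in C/EBPδ-inducible cells, and NBAS rose by 0.31 and 0.31. In the interactions 0 NMD factors were called by edgeR or DESeq2, with 3, 3 and 1 at an unadjusted p under 0.05 at 8, 24 and 48 h.

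Exon junction complex genes, which mark spliced junctions for NMD, were higher in C/EBPδ-inducible cells at 24 h in 4 of 6 cases, led by MAGOH (log2 0.34 ± 0.041) and CASC3 (0.31 ± 0.035), and lower in 0 (all genes 21.5% and 25.3%). At 48 h, 3 of them fell in CTRL and 4 in C/EBPδ-inducible cells (all genes 14.7% and 19.5%), with EIF4A3 at -0.54 and -0.40. Of 9 genes for decapping and 5′ to 3′ decay, 3 were higher at 24 h (DCP1B, DCP1A and DCP2, log2 0.49, 0.31 and 0.27) and 2 lower (XRN2, log2 -0.41, and EDC4, -0.24). XRN1, the cytoplasmic 5′ to 3′ exonuclease, was not called between the lines at 24 h (log2 -0.01) and rose at 48 h by 0.33 ± 0.075 in CTRL cells. Of 16 RNA exosome genes, 8 were higher and 2 lower at 24 h, with EXOSC5 at 0.61 ± 0.068 and EXOSC8 at -0.29 ± 0.045. At 48 h 3 of them rose and 5 fell in CTRL cells, and 4 rose and 7 fell in C/EBPδ-inducible cells, next to 15.2% and 14.7% of all genes in the former and 19.1% and 19.5% in the latter.

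The snoRNP proteins, which package snoRNAs into working particles, were higher in C/EBPδ-inducible cells for 9 of 13 genes at 24 h and lower for 0 (median log2 0.25), next to 21.5% and 25.3% of all genes. FBL, the methyltransferase of box C/D particles, was at 259 ± 3.1 CPM in CTRL and 379 ± 4.8 in C/EBPδ-inducible cells (SD, n = 3), a log2 difference of 0.54 ± 0.029 (adjusted p = 1.81e-14). NHP2 and NOP10, of the H/ACA particle, differed by 0.54 ± 0.037 and 0.45 ± 0.044. At 48 h 7 of 13 fell in CTRL cells, among them NOP56 (log2 -0.66 ± 0.041), NOP58 (-0.49 ± 0.046) and DKC1, the pseudouridine synthase (-0.49 ± 0.042). In C/EBPδ-inducible cells 7 fell as well, with NOP56 at -0.43 ± 0.030. Of all genes, 14.7% and 19.5% fell. In the interaction at 48 h 3 were higher and 0 lower, next to 2.83% and 2.72% of all genes: DKC1 by 0.32 ± 0.049, NOP58 by 0.30 ± 0.054 and NOP56 by 0.22 ± 0.048.

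Among protein-coding snoRNA hosts, many of them ribosomal protein and translation factor genes, 24 of 46 were more abundant in C/EBPδ-inducible cells at 24 h and 7 less so (median log2 0.09), against 21.5% and 25.3% of all genes. At 0 h 8 were higher and 12 lower (20% and 23.9%). RABGGTB, which hosts SNORD45 genes, was higher by 0.41 ± 0.036 and EIF4A1 by 0.52 ± 0.060. RPL7A and TPT1 were lower (log2 -0.56 ± 0.026 and -0.46 ± 0.029). Counts of EIF4A1, PPAN and RPL17 are uncertain, since annotated readthrough transcripts share their exons, and those of ribosomal protein genes can be split with their pseudogenes. In the interaction, 7 were higher at 24 h and 6 at 48 h, with 0 lower at either time. Of all genes, 2.86% and 2.83% were called higher. Values above 0 were found for 40 and 41 of the 46. Their medians were 0.099 and 0.11, against -0.00094 and -0.01 over all genes. The shares of all genes above 0 are not given here, so the sign counts are not read as a trait of these genes. TPT1 was higher in the interaction by 0.33 ± 0.037 at 24 h and RPS12 by 0.23 ± 0.037. At 48 h in CTRL cells 16 fell and 0 rose, led by HSPA8 (log2 -0.67 ± 0.033), against 14.7% and 15.2% of all genes. In C/EBPδ-inducible cells 26 of the 46 were lower at 8 h and 5 higher, against 15.8% and 14.6%.

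Coding transcripts used as reporters of NMD, several of them also targets of stress signalling through ATF4, were higher in C/EBPδ-inducible cells for 11 of 15 genes at 0 h and lower for 1, and for 9 and 1 at 24 h. The shares of all genes were 20% and 23.9% at 0 h and 21.5% and 25.3% at 24 h. GADD45A, induced by DNA damage and stress, was at 11.6 ± 0.45 CPM in CTRL and 78.6 ± 3.6 in C/EBPδ-inducible cells at 0 h (SD, n = 3), a log2 difference of 2.75 ± 0.058, and 1.77 ± 0.059 at 24 h. ATF3 differed by 1.34 ± 0.12 and MAP3K14 by 1.32 ± 0.038 at 24 h. At 48 h 7 rose and 6 fell in CTRL cells, and 7 rose and 6 fell in C/EBPδ-inducible cells (all genes 15.2% and 14.7%, then 19.1% and 19.5%). The interaction at 24 h was called lower for 4 of them (GADD45A, ASNS, CARS1 and SLC7A11, log2 -0.97, -0.42, -0.39 and -0.83) and higher for MAP3K14 (0.38), where 2.98% of all genes were lower and 2.86% higher.

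**Figure D5:**
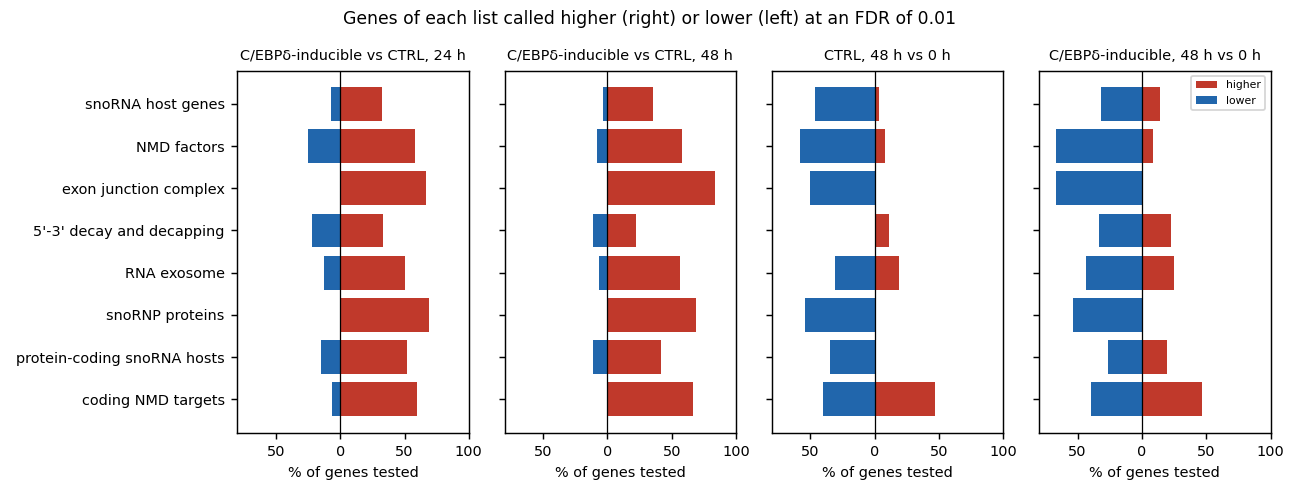
Percent of the tested genes of each list called higher or lower at an FDR of 0.01 in 4 comparisons: the lines against each other (C/EBPδ-inducible over CTRL) after 24 and after 48 h, and 48 h against 0 h in each line. For the snoRNA host genes the bars read 32.1% higher and 7.14% lower between the lines at 24 h, and 46.4% lower and 3.57% higher at 48 h in CTRL cells.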

How the data were processed

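RNA of MIA PaCa-2 cells was depleted of ribosomal RNA and sequenced. The authors ran Trimmomatic on the reads, mapped these with HISAT2 on GRCh38 and obtained gene counts from HTSeq. The deposited table holds these raw counts for 24 libraries. The versions in the paper and in the submitters' processing notes differ (the notes name HISAT2 2.3.4.3 and Trimmomatic 0.36), and the strand setting is not given in the sources used here. All sample columns were mapped by name, and 0 were left out.

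Counts were scaled with TMM, filtered with filterByExpr and tested with glmQLFit and glmQLFTest of edgeR 4.0.16 in R 4.3.3, in a model of the groups compared only. P-values were two-sided and Benjamini-Hochberg adjusted over all genes tested, with an FDR of 0.01. The analysis of variance that the study names was an alternative, since the values are counts. CPM used TMM factors over all 24 libraries. Scripts were tested on simulated data. Further alternatives were DESeq2 1.42.0, no filter (at least 1 count), a replicate block (the number in the labels as a term), a single model of all 24 libraries, leaving out each library, and leaving out hosts with exon overlaps on the other strand. Libraries held 12731237 to 22598595 counts, and floors of 3 counts cover counting error only.

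Symbols, exons and overlaps came from GENCODE 44, and start windows and promoters from RefSeq (GRCh38.p14, 28 of 32 hosts matched). The hosts and gene lists were chosen with earlier results of these data known. Named by rule were CEBPD, GAS5, ZFAS1, EPB41L4A-AS1, DANCR, the 5 hosts with the most counts, hosts called in an interaction, up to 5 called hosts of largest change in each direction between the lines at 24 h with libraries that did not overlap, up to 3 in each direction for each change with time, and up to 3 called genes per list and comparison. Others were named after their values were seen. Replicate numbers were taken to pair libraries where deviations from the group means correlated above 0.1 for all 3 numbers, which held for CTRL cells at 24 and 0 h alone (0.143, 0.147 and 0.19). Values of similar size with a negative sign occurred too. For replicate 1 in CTRL cells they were -0.243 at 8 and 0 h and -0.193 at 48 and 0 h. Whether the numbers reflect a true pairing is not known.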

Additional observations from a re-analysis of the deposited data

Results flagged for a closer look

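For SNHG14 and SNHG29 the change with doxycycline differed between the lines in the interaction test. SNHG14 rose more in C/EBPδ-inducible than in CTRL cells at 24 h, by 0.37 on the log2 scale, and over 16 alternatives the value ranged from 0.32 to 0.42 and was called in each. These alternatives did not change how reads shared with overlapping genes were assigned. SNHG29 rose more in C/EBPδ-inducible cells at 48 h, by 0.20 on the log2 scale, and 10 of 16 alternatives left it short of the threshold.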

How the results depend on the processing

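Of 78 called results of single hosts, DESeq2 left 5 short of the threshold, no filter on low counts 2, 1 model of all 24 libraries 6 and the replicate block 6, and leaving out 1 library did so in 77 of 480 refits. The analysis of variance at 24 h left 3 of 11 short (EPB41L4A-AS1, SNHG10 and SNHG11), and 0 results reversed under these alternatives. Between the lines at 8 h the count of 5 hosts became 3 with DESeq2, 9 with the model of all libraries and 3 with the replicate block. In CTRL cells at 8 h that model gave 2 in place of 0. The block gave 2 in place of 1 for CTRL cells at 24 h and 0 in place of 1 for the interaction at 48 h, and moved the other counts by less than 1.5 times. The cause was not tested. The shares of all genes called under these settings are not given here. These counts are therefore not read as a change of the hosts alone.

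Without hosts with exon overlaps on the other strand, which leaves fewer genes, the counts between the lines were 3, 1, 4 and 6 at 0, 8, 24 and 48 h, in CTRL cells 0 at 24 h and 4 at 48 h, in C/EBPδ-inducible cells 1, 2 and 4 at 8, 24 and 48 h, and in the interactions 0 at 24 h and 0 at 48 h. Leaving out 1 library gave 11 to 13 hosts between the lines at 0 h, 1 to 8 at 8 h, 9 to 11 at 24 h and 7 to 10 at 48 h. In CTRL cells it gave 0 to 0 at 8 h, 1 to 1 at 24 h and 11 to 16 at 48 h, and in C/EBPδ-inducible cells 4 to 6, 3 to 4 and 12 to 14. In the interactions it gave 0 to 0, 1 to 1 and 0 to 2 at 8, 24 and 48 h. The 2 were found without CTRL 48 h replicate 1. For these refits, too, the shares of all genes called are not given here. Depth limits the rarest hosts: SNHG18, SNHG27 and SNHG28 passed the filter in 0 of 13 comparisons and SNHG21 in 2.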
